A study of Homo sapiens with 6 samples.

Results

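The 54 genes described here detect double-stranded RNA, carry the interferon signal or are switched on by it, and they are a list of gene symbols whose rule uses no measured value, drawn up with earlier results of these data known. All 54 symbols were among the 23180 gene symbols of the A549 RNA-Seq table. A549 is an established human lung adenocarcinoma cell line, wild type in the sample labels and at passage 11. The cells were transfected with a control siRNA (siControl, 3 samples) or with siKMT9α#1 (3 samples), an siRNA against N6AMT1, the gene of the KMT9α subunit of the histone methyltransferase KMT9. Total RNA was taken 3 days after transfection. The groups differ only in the siRNA, both groups carry a synthetic duplex RNA and the transfection reagent, no untransfected sample was analysed here, and a single siRNA and a single cell line limit the comparison as a model of KMT9 loss.

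Cells recognise double-stranded RNA, a product of viral replication, of some endogenous transcripts and of long synthetic duplexes, with the helicases RIG-I and MDA5 in the cytosol and with the receptor TLR3 in endosomes. These sensors act through adaptors on the factors IRF3 and IRF7, which switch on the interferon genes. Secreted type I interferon binds the IFNAR1 and IFNAR2 receptor, whose kinases JAK1 and TYK2 activate STAT proteins, and the complex of STAT proteins with IRF9 binds the interferon-stimulated response element (ISRE) in the promoters of the antiviral genes.

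The counts assigned to 1 representative transcript per gene summed to 15551778 to 18568639.5 per siControl sample and to 13740097 to 19832395.5 per siKMT9α sample. The biological coefficient of variation between replicates was 4.47%, and the chi-square per gene was 1.34 to 5.15 within a group against 104 to 141 between groups, so no pair of libraries agreed within sampling noise. N6AMT1 had 10.2, 10.9 and 11.4 CPM (counts scaled to the library's normalised total) with siControl and 2.87, 3.22 and 3.35 CPM with siKMT9α, a log2 fold change of -1.77. The 5 epithelial markers summed to 3319 to 3705 CPM with siControl and to 1663 to 1749 CPM with siKMT9α. Of these, KRT8 (-1.28), KRT18 (-0.75), KRT19 (-0.68) and EPCAM (-2.76, from 3.85 to 0.572 CPM) were lower and CDH1 (1.34) was higher on the log2 scale. The 5 leukocyte markers summed to 3.39 to 3.92 and 1.87 to 2.19 CPM, most of it CD14, with CD3E at 0 counts in every sample and PTPRC at 2 counts or fewer. The 4 fibroblast markers summed to 4.37 to 5.04 and 2.82 to 3.28 CPM and the 3 endothelial markers to 0.512 to 0.836 and 0.0728 to 0.151 CPM. The part of these shifts in the results that follow was not tested, and in bulk RNA fewer cells of a type and less RNA per cell cannot be told apart.

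Of the 54 genes, 43 had enough counts to be tested, 28 were lower with siKMT9α than with siControl, 10 were higher and 5 passed in neither direction (edgeR's quasi-likelihood test, adjusted p under 0.05 after Benjamini-Hochberg adjustment over 13877 genes). That is 65.1% lower and 23.3% higher, where 38.5% of all genes tested were lower and 37.1% were higher. The filter kept a gene that had counts in either group, so these shares describe the 43 genes and not the full list. The median log2 fold change was -0.60 over the 43 genes and -0.01 over all genes tested. Under the study's threshold, a p under 1e-08 with an absolute log2 fold change over 0.26, 11 genes (25.6%) were lower and 4 (9.3%) were higher, beside 10.7% and 13.5% of all genes. The count of 11 depended on the setting. It was 5 without siKMT9α replicate 2, where 6.54% of all genes were lower, and 19 with edgeR's likelihood-ratio test, with its exact test and without the filter, where 20.7%, 20.6% and 15.4% of all genes were. In 38 of the 43 genes (88.4%) the 3 siControl values and the 3 siKMT9α values did not overlap, which held for 77.0% of all genes. Among genes that passed, a change of over 2-fold was seen in 12 lower (27.9% of those tested) and 2 higher genes (4.65%), beside 10.3% and 10.1% of all genes.

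By role, 5 of the 8 receptor, kinase and transcription factor genes (62.5%) were higher and 2 (25%) were lower (median log2 fold change 0.38). Among the 26 tested of the 35 genes listed for the antiviral response itself, 21 (80.8%) were lower, 3 (11.5%) were higher and 2 passed in neither direction (median -0.76). Of all genes tested, 37.1% were higher and 38.5% were lower. These shares were not compared with a test. The plot of the log2 fold changes by role shows every tested gene with its standard error.

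**Figure D1:**
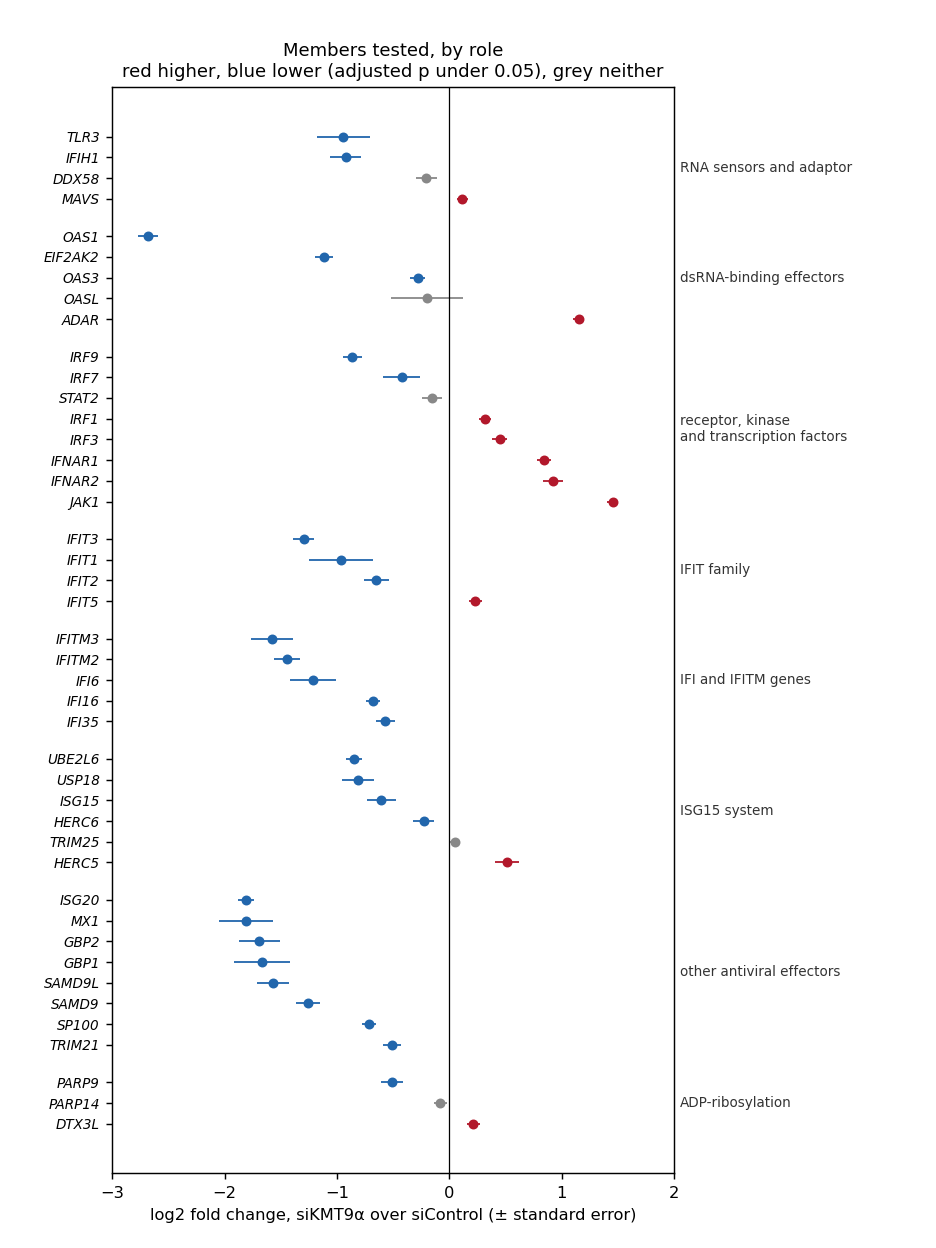
Log2 fold change of siKMT9α over siControl for the 43 tested genes, grouped by role, as points with the standard error as a bar (horizontal axis, log2 scale, n = 3 samples per group). Red points passed as higher, blue as lower and grey in neither direction; JAK1 (1.45) and OAS1 (-2.68) are the ends of the range, and MAVS, TRIM25 and DTX3L, all close to 0, turn to the negative side with GC and length offsets.

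The promoters are printed for 4 example genes, since the ISRE is the sequence that most of the listed antiviral genes are known to share. All 4 hold the core described below, which other windows, such as that of OAS1, lacked. RefSeq promoter windows of GRCh38.p14, from 250 bases before to 50 bases after the transcription start, were found for 43 of the 54 genes by symbol. The window is on the build of RefSeq and not on the hg19 build of the counts. The core searched for was GAAA, any 2 bases, then GAAA, on both strands, and capitals mark each match, which reads TTTC, any 2 bases, then TTTC where it lies on the other strand. EIF2AK2, which encodes the kinase PKR, lies on the minus strand (window chr2:37156931-37157230) and has 1 match that begins 6 bases before the start. IFI6, an interferon-induced mitochondrial protein, has 3 matches on the minus strand of chr1:27672143-27672442. IFIT3 and IFIT5, of a gene cluster on the plus strand of chromosome 10 that encode RNA-binding or partner proteins of the IFIT complex, have 2 and 3 matches in chr10:89327747-89328046 and chr10:89414318-89414617.
EIF2AK2: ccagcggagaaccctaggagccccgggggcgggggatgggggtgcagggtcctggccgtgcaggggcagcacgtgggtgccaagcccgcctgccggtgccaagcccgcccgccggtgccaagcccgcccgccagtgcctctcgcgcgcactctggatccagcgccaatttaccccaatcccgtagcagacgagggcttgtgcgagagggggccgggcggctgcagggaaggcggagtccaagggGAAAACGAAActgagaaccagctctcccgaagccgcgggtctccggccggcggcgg
IFI6: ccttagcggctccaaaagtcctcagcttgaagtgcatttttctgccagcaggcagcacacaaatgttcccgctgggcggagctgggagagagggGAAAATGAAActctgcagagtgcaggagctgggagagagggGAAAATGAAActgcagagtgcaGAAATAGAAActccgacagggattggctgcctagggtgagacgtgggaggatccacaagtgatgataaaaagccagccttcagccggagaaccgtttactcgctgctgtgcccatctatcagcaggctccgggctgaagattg
IFIT3: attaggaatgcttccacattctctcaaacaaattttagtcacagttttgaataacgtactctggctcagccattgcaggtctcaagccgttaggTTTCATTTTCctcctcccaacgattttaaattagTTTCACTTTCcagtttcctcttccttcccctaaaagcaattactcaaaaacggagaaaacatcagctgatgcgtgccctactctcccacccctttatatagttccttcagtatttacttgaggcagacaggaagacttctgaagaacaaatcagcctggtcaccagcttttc
IFIT5: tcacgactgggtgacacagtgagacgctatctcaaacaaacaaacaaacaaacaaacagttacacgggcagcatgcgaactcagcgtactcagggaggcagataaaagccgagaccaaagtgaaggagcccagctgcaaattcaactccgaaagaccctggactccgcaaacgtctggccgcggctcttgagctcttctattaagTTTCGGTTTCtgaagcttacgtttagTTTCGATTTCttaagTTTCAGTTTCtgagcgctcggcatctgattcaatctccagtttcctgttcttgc

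EIF2AK2, IFI6 and IFIT3 were lower with siKMT9α and IFIT5 was higher. In a longer form of the motif, the 2 bases CT follow the core. The 1 match of EIF2AK2, the 3 of IFI6 and the 3 of IFIT5 extended to this form, as did 1 of the 2 of IFIT3. The core was in 23 of the 43 windows (53.5%) and in 996 of the 27305 RefSeq promoters (3.65%). The longer form was in 14 windows (32.6%) and in 0.271% of all promoters. The STAT motif, TTC and GAA around 3 free bases, was in 9 windows (20.9%) and in 7.88% of all promoters, and it can share its GAA with the core. Of the 23 windows of genes that were lower, 14 (60.9%) held the core, and so did 3 of 8 (37.5%) among the genes that were higher, which were IFIT5, HERC5 and DTX3L. Among all tested genes with a window, 3.05% of the lower and 2.37% of the higher genes held it. The longer form had the other order, in 7 (30.4%) of the lower and 3 (37.5%) of the higher windows. Among all tested genes with a window it was in 0.277% of the lower and 0.18% of the higher genes. Among the higher genes, ADAR, JAK1, IFNAR1, MAVS and IRF1 had no match in their windows. All of them belong to the sensing, RNA-binding and signalling groups, and IFIT5, HERC5 and DTX3L to the antiviral groups. Direction and role were thus not separated in these shares. Among the lower genes, OAS1, SAMD9L, UBE2L6, IRF9, IFI35, IFI16, HERC6, SP100 and PARP9 had none. A match describes the letters and not a bound site, and a missing match covers only this exact pattern. The OAS1 window held GAAA, 1 base, then GAAA, and in that of SAMD9L 1 letter departed from the core. A single start per gene was searched, while the listed ADAR transcripts, on the minus strand, begin at 154600456, 154580724 or 154578776 of hg19. The missing match in ADAR thus covers only the start searched and not its other starts.

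The 5 genes of the first group encode the sensors and their adaptor. IFIH1, which encodes MDA5, the sensor of long double-stranded RNA, had 8.02, 6.48 and 8.21 CPM with siControl and 4.31, 3.51 and 4.18 CPM with siKMT9α. TLR3, the endosomal receptor for double-stranded RNA, had 2.97, 2.59 and 1.98 CPM and 0.907, 1.46 and 1.46 CPM. In both genes all siKMT9α values lay under all siControl values (log2 fold change -0.92, standard error 0.14, adjusted p = 5.84e-06 for IFIH1, and log2 fold change -0.94, standard error 0.23, adjusted p = 0.00119 for TLR3). DDX58, which encodes RIG-I, the sensor of short duplexes with a 5′ triphosphate, had 21.8, 19.8 and 16.9 CPM with siControl and 15.5, 17.1 and 17.8 CPM with siKMT9α. Its groups overlapped, and it missed the threshold (log2 fold change -0.21, standard error 0.09, adjusted p = 0.0536). It passed as lower in 10 of the 17 other settings, among them the likelihood-ratio test (adjusted p = 0.0433), library size alone (0.00571) and the fits without siControl replicate 3 (0.00885) or siKMT9α replicate 3 (0.0350). MAVS, the mitochondrial adaptor of both helicases, had 100.6, 92.1 and 97.1 CPM with siControl and 101.4, 105.2 and 107.1 CPM with siKMT9α. The groups did not overlap, by a margin of under 1 CPM, and the log2 difference of 0.11 (standard error 0.05, adjusted p = 0.0445) was small, turned to -0.28 with GC and length offsets, and lost its call without siControl replicate 2 or 3 or without siKMT9α replicate 2 or 3 (adjusted p = 0.0732 to 0.164). With library size alone it was 0.0095 (adjusted p = 0.868), and with at least 10 counts in every sample it also lost its call (adjusted p = 0.0752). DHX58, which encodes the related helicase LGP2, was not tested, at 4 counts or fewer in every sample.

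The 6 genes that act on double-stranded RNA itself showed the widest spread. OAS1, on chromosome 12 of hg19 (chr12:113344739-113355831), makes 2′-5′-linked oligoadenylates that activate the nuclease RNase L. It had 55.5, 48.8 and 50.3 CPM with siControl and 9.07, 8.04 and 7.27 CPM with siKMT9α. The level was 6.41-fold lower (log2 fold change -2.68, standard error 0.09, adjusted p = 1.66e-15), and no other tested gene of the list fell by more. OAS3, its neighbour and the family member that prefers long duplexes, had 39.2, 39.3 and 34.9 CPM and 31.3, 30.8 and 31.1 CPM. Its groups were also apart, by -0.28 on the log2 scale (standard error 0.07, adjusted p = 0.000673). EIF2AK2 encodes PKR, which stops translation when it binds double-stranded RNA, and had 41.1, 47.1 and 41.6 CPM with siControl and 17.8, 22.2 and 19.8 CPM with siKMT9α. It was 2.16-fold lower (log2 fold change -1.11, standard error 0.08, adjusted p = 1.79e-10), and its groups did not overlap. OASL, an OAS relative without enzyme activity, was close to the limit of detection at 0.531, 0.741 and 0.832 CPM and 0.756, 0.585 and 0.523 CPM, its groups overlapped and it did not pass (log2 fold change -0.20, standard error 0.32, adjusted p = 0.610). OAS2 was not tested, with 8 counts or fewer in every sample.

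ADAR, on chromosome 1 (chr1:154554534-154600456), deaminates adenosines in double-stranded RNA and so keeps endogenous duplexes from the sensors. It had 114, 105 and 116 CPM with siControl and 247, 255 and 244 CPM with siKMT9α. Each siKMT9α sample was above each siControl sample, and the level was 2.22-fold higher (log2 fold change 1.15, standard error 0.05, adjusted p = 9.59e-14). The 5 listed ADAR transcripts had log2 fold changes of 1.15 to 1.16 and counts that differed little, so these counts do not separate the interferon-inducible form from the constitutive one. ADAR and EIF2AK2 thus differed in opposite directions in the same samples, as the plot of CPM by sample shows.

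**Figure D2:**
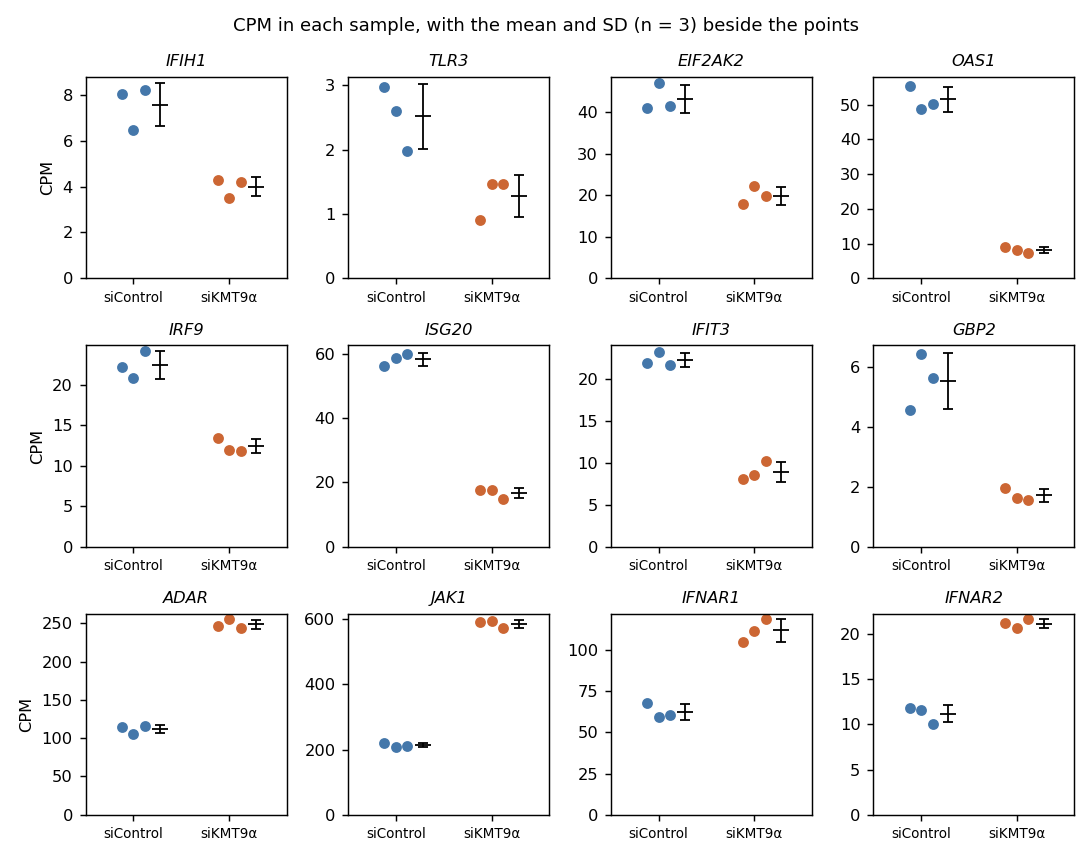
CPM (vertical axes, from 0, scaled per panel) in the 3 siControl and 3 siKMT9α samples for 12 of the genes, 1 point per sample, with the mean and SD of the group (n = 3) beside the points. The groups do not overlap in any of the 12 panels, with siKMT9α lower in the upper 8, such as OAS1, and higher in ADAR, JAK1, IFNAR1 and IFNAR2.

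The receptor and kinase genes of the list, IFNAR1, IFNAR2 and JAK1, were higher. IFNAR1, which encodes the signalling chain of the type I interferon receptor, had 67.8, 59.2 and 60.3 CPM with siControl and 105, 112 and 119 CPM with siKMT9α, a 1.80-fold difference (log2 fold change 0.84, standard error 0.06, adjusted p = 1.82e-10). IFNAR2, the high-affinity chain, also on chromosome 21, had 11.8, 11.6 and 10.1 CPM and 21.2, 20.6 and 21.7 CPM, a 1.90-fold difference (log2 fold change 0.92, standard error 0.09, adjusted p = 9.17e-09). Neither gene's groups overlapped. JAK1, on chromosome 1 (chr1:65298906-65432187), encodes the kinase bound to IFNAR2 and to many cytokine receptors, so it is not particular to interferon. It had 221, 208 and 211 CPM with siControl and 591, 594 and 572 CPM with siKMT9α. The siKMT9α values were 2.74-fold higher with little spread (log2 fold change 1.45, standard error 0.05, adjusted p = 1.84e-15), and no other gene of the list rose by more. The deposited span of JAK1 overlaps the opposite-strand gene RAVER2 by 9 bases, and RAVER2 had a log2 fold change of -0.12.

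The factors that act in the nucleus did not share a direction. IRF9, the DNA-binding partner of the STAT proteins in the complex that binds the ISRE, had 22.2, 20.9 and 24.2 CPM with siControl and 13.5, 11.98 and 11.8 CPM with siKMT9α. Its siKMT9α values were all lower (log2 fold change -0.86, standard error 0.09, adjusted p = 3.09e-08). STAT2, its partner in that complex, had 24.4, 23.3 and 22.9 CPM and 18.0, 20.6 and 24.2 CPM, with siKMT9α replicate 3 inside the siControl range. It did not pass (log2 fold change -0.15, standard error 0.09, adjusted p = 0.125), and it passed as lower without that replicate (-0.28, adjusted p = 0.00570), with library size alone (-0.26, adjusted p = 0.0135) and with GC and length offsets (-0.30, adjusted p = 0.00170). IRF3, the factor that the sensors activate first, had 43.1, 50.7 and 49.3 CPM with siControl and 70.4, 61.5 and 63.3 CPM with siKMT9α. All siKMT9α values were higher (log2 fold change 0.45, standard error 0.07, adjusted p = 5.98e-06), but 734 bases of its span of hg19 are shared with BCL2L12 on the opposite strand, itself higher by 0.76 on the log2 scale (adjusted p = 3.84e-08). Whether the counting used the strand is not given in the sources used here, so reads of this pair cannot be told apart.

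IRF1, a factor induced by interferon gamma, had 40.2, 41.1 and 41.7 CPM with siControl and 52.8, 48.3 and 52.2 CPM with siKMT9α, again without overlap (log2 fold change 0.32, standard error 0.06, adjusted p = 5.84e-05). IRF7, the interferon-inducible factor that amplifies interferon production, was scarce at 3.19, 3.95 and 4.16 CPM and 2.72, 2.78 and 2.88 CPM. Its groups were apart, but the difference (log2 fold change -0.42, standard error 0.16, adjusted p = 0.0247) did not pass without siControl replicate 2 or 3 or without siKMT9α replicate 1 or 2 (adjusted p = 0.0570 to 0.123), with DESeq2 (0.102) or with GC and length offsets (-0.20, adjusted p = 0.258). The higher genes of this group were thus JAK1, IFNAR2, IFNAR1, IRF3 and IRF1, and the lower ones IRF9 and IRF7.

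The antiviral genes themselves were mostly lower. The 8 with the most negative log2 fold changes among those that passed were ISG20, MX1, GBP2, GBP1, IFITM3, SAMD9L, IFITM2 and IFIT3. ISG20, an exonuclease that degrades viral RNA (chr15:89182039-89198879), had 56.1, 58.8 and 60.1 CPM with siControl and 17.8, 17.6 and 14.9 CPM with siKMT9α. Its level was 3.51-fold lower, without overlap (log2 fold change -1.81, standard error 0.07, adjusted p = 3.14e-14). MX1, a dynamin-like GTPase that blocks influenza virus, was scarce at 2.76, 2.84 and 2.91 CPM and 0.983, 0.438 and 0.942 CPM. The groups stood apart nonetheless (log2 fold change -1.81, standard error 0.24, adjusted p = 1.30e-06).

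GBP1 and GBP2, neighbouring guanylate-binding GTPases on chromosome 1, were both lower. GBP2 had 4.57, 6.42 and 5.61 CPM with siControl and 1.97, 1.61 and 1.57 CPM with siKMT9α (log2 fold change -1.69, standard error 0.18, adjusted p = 8.10e-08). GBP1 had 2.81, 2.84 and 3.43 CPM and 0.453, 1.02 and 1.26 CPM (log2 fold change -1.67, standard error 0.25, adjusted p = 6.02e-06). In both, the lowest siControl sample was above the highest siKMT9α sample. SAMD9L, an inhibitor of translation in infected cells, had 7.12, 7.72 and 8.06 CPM with siControl and 2.12, 2.92 and 2.62 CPM with siKMT9α (log2 fold change -1.57, standard error 0.14, adjusted p = 8.03e-09), and its neighbour SAMD9 had a log2 fold change of -1.26 (adjusted p = 2.65e-09). Both lie on chromosome 7. SP100, a nuclear body component, and TRIM21, a cytosolic antibody receptor, were lower by smaller amounts, at -0.71 and -0.51 on the log2 scale. All 8 tested genes of this antiviral group were lower (median -1.62), beside 38.5% of all genes tested.

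IFITM2 and IFITM3 encode membrane proteins that stop viruses from fusing in endosomes. IFITM2 had 13.5, 12.2 and 11.9 CPM with siControl and 5.21, 4.53 and 4.18 CPM with siKMT9α (log2 fold change -1.45, standard error 0.12, adjusted p = 1.20e-09). IFITM3 had 5.31, 5.43 and 6.34 CPM and 1.97, 1.17 and 2.41 CPM (log2 fold change -1.58, standard error 0.19, adjusted p = 3.39e-07). Both fell without overlap, and as near-identical paralogs they may share reads, so the split between them is uncertain. The other 3 tested genes of the IFI and IFITM group were lower too, IFI6 at -1.21, IFI16, a nuclear DNA sensor, at -0.68 and IFI35 at -0.57 on the log2 scale.

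IFIT3, a partner that stabilises the RNA-binding IFIT1, had 21.9, 23.2 and 21.6 CPM with siControl and 8.01, 8.48 and 10.3 CPM with siKMT9α. Its siKMT9α values were all lower (log2 fold change -1.30, standard error 0.09, adjusted p = 2.70e-10). IFIT1 and IFIT2 were lower as well, with log2 fold changes of -0.96 and -0.65, IFIT1 at a level of 0.605 to 2.16 CPM. IFIT5, which binds RNA as a monomer, had 39.2, 39.1 and 37.2 CPM with siControl and 43.6, 45.2 and 46.5 CPM with siKMT9α. That is a small rise without overlap (log2 fold change 0.23, standard error 0.06, adjusted p = 0.00144), which lost its call when the library size alone was used for scaling (adjusted p = 0.0583).

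The ISG15 system attaches the ubiquitin-like protein ISG15 to other proteins. ISG15 itself (-0.60), its conjugating enzyme UBE2L6 (-0.85) and its protease USP18 (-0.81) were lower on the log2 scale. HERC5, its main human ligase, had 8.07, 8.71 and 7.12 CPM with siControl and 10.7, 11.1 and 11.9 CPM with siKMT9α. All siKMT9α values were higher (log2 fold change 0.51, standard error 0.11, adjusted p = 0.000222). Its neighbour HERC6 was lower by a small amount (log2 fold change -0.23, standard error 0.09, adjusted p = 0.0336) and lost its call without siControl replicate 1 or 3 or without siKMT9α replicate 1 or 3 (adjusted p = 0.0686 to 0.132). TRIM25, the ligase that ubiquitinates RIG-I, had 258, 258 and 265 CPM with siControl and 269, 261 and 278 CPM with siKMT9α. Its groups overlapped and it did not pass (log2 fold change 0.05, standard error 0.05, adjusted p = 0.327), and the sign turned to -0.055 with the library size alone and to -0.17 with GC and length offsets.

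PARP9, PARP14 and DTX3L act in ADP-ribosylation. DTX3L, a ubiquitin ligase that works as a dimer with PARP9, had 42.0, 39.3 and 40.0 CPM with siControl and 45.0, 48.0 and 47.6 CPM with siKMT9α. Its groups did not overlap (log2 fold change 0.21, standard error 0.06, adjusted p = 0.00254), but with GC and length offsets the value was -0.011, and with the library size alone it did not pass (adjusted p = 0.0925). PARP9 was lower (log2 fold change -0.51, standard error 0.10, adjusted p = 9.63e-05), and PARP14 did not pass (log2 fold change -0.08, standard error 0.06, adjusted p = 0.211), although it did with the library size alone (log2 fold change -0.18) and with GC and length offsets (-0.35). PARP9 and DTX3L share 339 bases of their spans on opposite strands.

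Genes that lie close together did not always share a direction. Ratios of CPM within a sample are given for pairs within 500 kb as a description, with no test, since the pairs were chosen after their values were seen. The mean log2 ratio of OAS1 to OAS3, which lie 20.4 kb apart, was 0.45 ± 0.12 with siControl and -1.94 ± 0.15 with siKMT9α (SD, n = 3). That of IFIT3 to IFIT5, 73.6 kb apart, was -0.79 ± 0.04 and -2.35 ± 0.15. HERC6 to HERC5 went from 0.82 ± 0.17 to 0.09 ± 0.17 and PARP9 to DTX3L from -1.26 ± 0.14 to -1.99 ± 0.11. In these 4 pairs the 3 samples of a group lay apart from the 3 of the other, as they did in 12 of all 17 pairs, including genes of 1 direction such as SAMD9 and SAMD9L. Such separation was common, since the groups did not overlap in 77% of all single genes tested. The share over all neighbouring pairs of the table was not computed. The ratios of IFITM2 to IFITM3, of GBP1 to GBP2 and of IFNAR2 to IFNAR1 overlapped between the groups, with differences in mean of 0.25, -0.17 and 0.08 on the log2 scale.

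**Figure D3:**
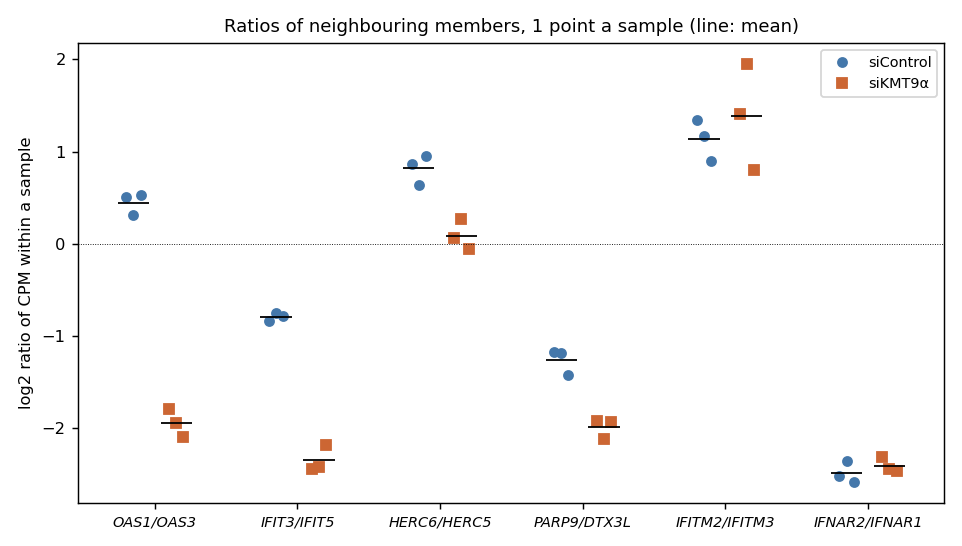
Log2 ratio of the CPM of neighbouring genes within a sample (vertical axis, log2 scale), 1 point per sample, with a line at the mean of each group (n = 3). OAS1/OAS3 drops from 0.45 to -1.94 and IFIT3/IFIT5 from -0.79 to -2.35, while IFITM2/IFITM3 and IFNAR2/IFNAR1 overlap between siControl and siKMT9α.

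Per kilobase of transcript, the most abundant genes of the list in siControl cells were ISG20 (61.5 CPM per kb), TRIM25 (45.4), JAK1 (42.7), OAS1 (35.3) and IRF3 (29.5). With siKMT9α the order was JAK1 (117 CPM per kb), TRIM25 (47.0), IRF3 (40.2) and ADAR (38.2), with ISG20 at 17.6 and OAS1 at 5.56. OASL (0.388), TLR3 (0.829) and MX1 (0.846) were the lowest of the tested genes in siControl cells. Of the 43, 42 had a mean of at least 1 CPM over the 6 samples. The plot against the level of all genes shows where the genes lie in the table.

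**Figure D4:**
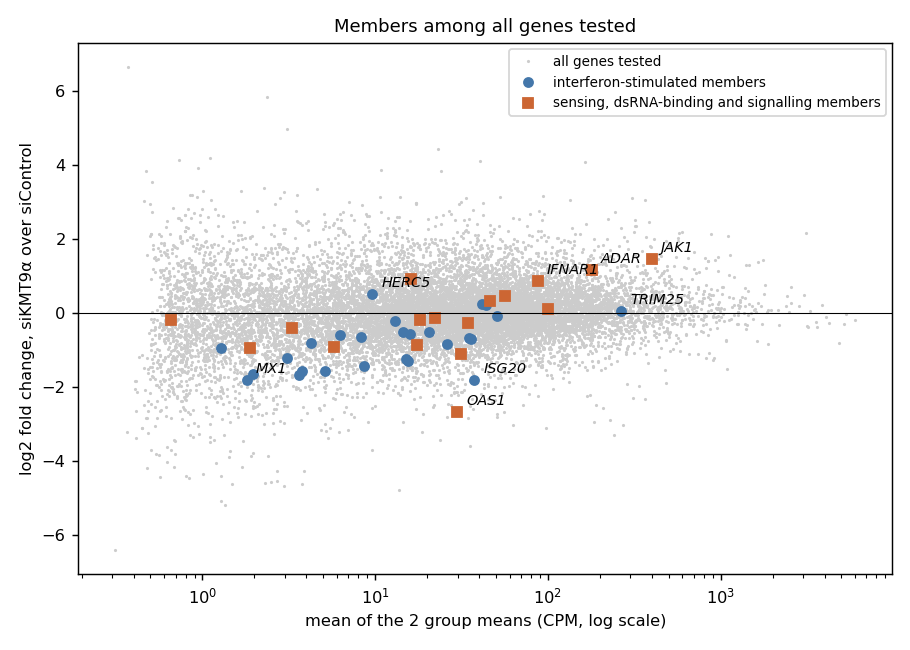
Log2 fold change of siKMT9α over siControl (vertical axis) against the mean of the group means in CPM (horizontal axis, log scale) for the 13877 genes tested (grey), with the interferon-stimulated genes as blue circles and the sensing, RNA-binding and signalling genes as orange squares. OAS1 (-2.68), ISG20 (-1.81) and MX1 (-1.81) lie low, and JAK1 (1.45), ADAR (1.15) and IFNAR1 (0.84) lie high, at levels shared with many other genes.

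The 11 genes that were not tested had few reads, which include several that interferon induces strongly in many cell types. IFI44 had 15, 7 and 15 counts with siControl and 3, 0.5 and 3 counts with siKMT9α. IFITM1 had 7, 4 and 7.5 and 1, 3 and 1, and IFI27 had 7.5, 7.5 and 11 and 2, 7 and 3. When the filter was removed, IFI44 (log2 fold change -2.31, adjusted p = 0.000142) and IFITM1 (-1.61, adjusted p = 0.0472) passed as lower, and none of the other 9 passed. RSAD2, which encodes viperin, had 2, 3 and 0 counts with siControl and 5, 4 and 5 with siKMT9α, and its neighbour CMPK2 had 2.5, 1 and 4 and 2, 7 and 5. DHX58, OAS2, IFI44L, MX2, BST2 and XAF1 had between 0 and 8 counts in any sample, and a difference in them was not detectable at this depth.

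The interferon genes, which make the signal itself, were at or near 0 apart from IFNE. IFNK, IFNW1 and IFNG had 0 counts in all 6 samples, which allows up to 3 counts per library. IFNB1 had 0, 0 and 0 counts with siControl and 0, 1 and 1 with siKMT9α, and IFNA1 had 0, 0 and 0 and 2, 0 and 1. IFNL1, IFNL2 and IFNL3 had at most 1 count in any sample. IFNE, an epithelial type I interferon, had 9, 3 and 5 counts with siControl and 22, 22 and 43.5 with siKMT9α (log2 fold change 2.58, standard error 0.33, adjusted p = 6.93e-07). The span of IFNE lies over that of MIR31HG, which was higher by 2.44 on the log2 scale (adjusted p = 7.05e-11), and the counts of the pair cannot be told apart without the strand.

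A further list held 67 genes of the same pathways, of which 51 were tested, 24 (47.1%) were lower, 21 (41.2%) were higher and 6 passed in neither direction (median log2 fold change -0.10), near the 38.5% and 37.1% of all genes. Under the study's threshold 8 (15.7%) were lower and 8 (15.7%) were higher, beside 10.7% and 13.5% of all genes. The largest rise was in SOCS3, which encodes a feedback inhibitor of JAK kinases. It had 29.6, 30.3 and 27.6 CPM with siControl and 256, 242 and 224 CPM with siKMT9α, an 8.25-fold difference (log2 fold change 3.04, standard error 0.06, adjusted p = 3.95e-18). CCL5, a chemokine gene induced by interferon and by NF-κB, had 7, 9 and 10 counts with siControl and 19.5, 31 and 28 with siKMT9α (log2 fold change 1.83, standard error 0.29, adjusted p = 1.45e-05). Both rose without overlap between the groups.

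The largest falls were in TMEM173, RNF125 and NMI. TMEM173 encodes STING, the adaptor of the DNA sensor cGAS, and had 44.5, 37.5 and 49.5 counts with siControl and 4, 5 and 12.5 with siKMT9α (log2 fold change -2.40, standard error 0.27, adjusted p = 1.59e-07). RNF125, a ubiquitin ligase that marks RIG-I and MAVS for degradation, had 4.89, 5.002 and 3.95 CPM and 1.28, 1.02 and 0.680 CPM (log2 fold change -2.25, standard error 0.22, adjusted p = 1.66e-08). NMI, an interferon-induced partner of STAT proteins and of IFI35, had 24.0, 21.4 and 21.7 CPM and 4.84, 6.87 and 7.43 CPM (log2 fold change -1.79, standard error 0.11, adjusted p = 3.32e-11). No siKMT9α value reached the siControl range in any of the 3 genes.

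Of the 6 receptor and kinase genes of this list, 4 (66.7%) were higher and 1 (16.7%) was lower, beside 37.1% and 38.5% of all genes tested. The higher ones, named after their values were seen, were the interferon gamma receptor chains IFNGR1 (0.38) and IFNGR2 (1.08), IL10RB (0.82), which also serves in the interferon lambda receptor, and JAK2 (0.76). IFNGR2 and IL10RB lie on chromosome 21, as do IFNAR1 and IFNAR2. The span of IFNGR2 overlaps that of TMEM50B, itself higher by 0.43 on the log2 scale (adjusted p = 3.07e-06), and the part of shared reads was not tested. IFNLR1, the chain specific to interferon lambda, was lower (-1.45). TYK2, the kinase of IFNAR1, did not pass (log2 fold change 0.17, standard error 0.10, adjusted p = 0.127). Of the 9 adaptors and kinases downstream of the sensors, 5 (55.6%) were higher and 4 (44.4%) were lower. Of the 21 other interferon-induced genes tested, 12 (57.1%) were lower, 6 (28.6%) were higher and 3 passed in neither direction. These shares were not compared with a test.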

How the data were processed

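Per the labels and the methods of the study, the authors used STAR and hg19 for alignment, HOMER for counting on RefSeq transcripts and edgeR for the comparison. The authors deposited estimated counts per transcript and sample, not normalized, of which 36.4% were not whole, in steps of 0.5. The table also holds the authors' fold changes and p-values, which were not used. HOMER's counting options, edgeR's settings and the library type are not given in the sources used here. Every column of per-sample values was matched to 1 of the 6 samples.

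The 1182 of 38767 rows without a symbol and counts were left out, and the transcript with the highest sum over the 6 samples stood for each of the 23180 symbols. After rounding, the fit used edgeR 4.0.16 under R 4.3.3 (TMM factors of 0.964 to 1.042, filterByExpr, quasi-likelihood F test, Benjamini-Hochberg adjustment over 13877 genes). The tests were two-sided. The standard error was the log2 fold change divided by the square root of F. CPM were scaled by TMM, apart from the sums of markers, which used the unscaled totals, and CPM per kb were also scaled by transcript length. The scripts were tested on simulated data. The p-values measure the spread between samples that the labels call biological replicates, and floors cover counting error only.

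The genes, the further pathway list and the markers were chosen with earlier results of these data known. Values in every sample are given for the sensing and signalling genes and for the 8 most negative and up to 6 most positive antiviral genes that passed with a mean of at least 1 CPM, of which only 3 were positive. Of the further list, the interferon genes and the 3 genes with the largest rise and fall are given. Spans are those of the hg19 table, strands come from the GRCh37 annotation, and promoters come from RefSeq on GRCh38.p14. Other settings tried were DESeq2 1.42.0, the likelihood-ratio and exact tests of edgeR, scaling by RLE or by library size alone, a minimum of 10 counts per sample or no filter, a table of all transcripts, a replicate block, and the removal of each sample in turn. Per-sample GC and length offsets (alone or combined with the block) were chosen after seeing the data.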

Additional observations from a re-analysis of the deposited data

How the results depend on the processing

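Of the 43 tested genes, 30 kept their direction and their call under all 17 alternatives, 4 (OASL, IFIT1, MX1 and GBP1) under the 16 that tested them, and 9 changed. Directions turned in 3 genes. TRIM25 went to -0.055 with library size alone, to -0.17 with GC and length offsets and to -0.17 with these offsets and the replicate block. MAVS went to -0.28 with the offsets alone and to -0.28 with the block added, and DTX3L to -0.011 and -0.011, and the cause was not tested. Library size alone moved the median of all genes by -0.11 (log2) and the share of genes that passed as higher and lower to 31.4% and 44.8%. The count of 11 lower genes under the study's threshold was 19 with the likelihood-ratio test, 19 with the exact test, 19 without the filter, 6 with the replicate block, 17 with offsets and the block, and 5 to 13 with a sample left out. The share of all genes moved as well. In the same order it was 20.7%, 20.6%, 15.4%, 7.02%, 17.9%, and 6.54% to 12.9%, beside 10.7% in the main fit. The median of -0.60 was -0.71 with library size alone, -0.58 with at least 10 counts in every sample, -0.55 with the offsets, -0.54 with the offsets and the block, and -0.66 to -0.55 with a sample left out. The replicate numbers are not said to mark pairs, so the main fit had no block. Same-numbered samples also did not deviate together (correlations of -0.08, 0.02 and -0.08). With the replicate block MAVS (adjusted p = 0.0801) and HERC6 (adjusted p = 0.0533) lost their calls. DESeq2 ended the calls of MAVS (adjusted p = 0.0585), IRF7 (0.102) and HERC6 (0.115). Low counts left 11 of the 54 genes untested.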

Other observations

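Of the 54 genes, 18 had more than 1 tested transcript in the table, and in all 18 the transcripts had log2 fold changes of 1 sign. Transcripts of a gene share most of their reads, so they are not independent measurements. The range within a gene exceeded 0.1 on the log2 scale in 2 genes. The 8 transcripts of IRF3 ranged from 0.45 to 0.64, and the 3 of IFNAR2 from 0.80 to 0.92. The 3 transcripts of OAS1 ranged from -2.68 to -2.58. For IRF3, the gene that overlaps BCL2L12, the shortest listed transcript (881 bases) had the value of 0.64 and the representative one (1617 bases) that of 0.45.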
